A study of Arabidopsis thaliana with 36 samples.

Results

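The step from 5 to 7 long days was followed in the apical region of flc-3 plants of Arabidopsis thaliana, with 3 ATH1 arrays at 7 long days and 3 at 5 long days. These 6 of the 36 arrays of the series were chosen by their line and treatment labels alone. The line flc-3 carries a fast-neutron mutant allele of FLC in a Col-0 background without the FRI allele of Sf-2, and the labels call it early flowering. FRI flc-3 carries the same mutant allele with the Sf-2 FRI allele, and FRI carries that FRI allele with a functional FLC. All plants grew in soil at 23 degrees in short days before they were moved to long days, and all lines were sampled after 0, 3, 5 and 7 long days with 3 arrays each. No group stayed in short days alongside, so the effect of long days and that of plant age cannot be told apart.

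FLC encodes a MADS-box repressor of flowering, and FRI raises its expression. Without a working FLC, long days bring the shoot apex through the floral transition, in which leaf initiation at the flanks of the meristem gives way to floral meristems. The genes known to act there include promoters of flowering such as AGL24 and AGL42, repressors such as AGL18 and SMZ, and floral meristem genes such as UFO. An apical region can also hold young leaves, so a signal can move with the cells in the sample. In these bulk samples fewer cells of a type and less RNA per cell cannot be told apart.

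The 6 arrays were of like scale. Their trimmed mean signals lay between 100.007 and 100.008, and correlations over the tested probe sets ran from 0.990 to 0.993 among day 7 arrays, from 0.994 to 0.995 among day 5 arrays and from 0.976 to 0.979 between the days. The stage labels go against the day. All 3 arrays of day 5 and replicate 1 of day 7 are labelled transition, whereas replicates 2 and 3 of day 7 are labelled vegetative. These replicates correlated with the day 0 arrays at 0.930 to 0.932 and at 0.926 to 0.927, and replicate 1 did so at 0.931 to 0.932, so the arrays labelled vegetative were no nearer to day 0. The targeted gene was not analysed here, because the annotation table used does not name FLC or FRI.

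Many more of the largest differences were losses than gains between day 5 and day 7. Of 14912 tested probe sets, 1477 (9.90%) were called at an adjusted p under 0.05 in limma, 687 (4.61%) higher and 790 (5.30%) lower on day 7. At least 2-fold differences were held by 61 of the higher and 122 of the lower probe sets. A difference is given on the scale of log2(signal + 16), which understates the change of dim probe sets. A standard error (SE) is that of the fit, which pools the spread of a probe set over all 36 arrays in 12 groups. With day 7 represented by replicate 1 alone, 779 probe sets were called. With array weights 2263 were called.

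The loci named first were chosen by size in this contrast, 12 in each direction, among called loci whose days did not overlap. The largest gain was that of AT2G20870. Its signals were 238, 243 and 232 on day 7, against 38.6, 30.3 and 37.4 on day 5. The log2 difference was 2.30 ± 0.10 (SE, 3 against 3 arrays), with an adjusted p of 1.1e-18 in limma. The gene had averaged 33.2 and 39.2 at days 0 and 3, so its level was flat until the last step.

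WSD1, a wax ester synthase of the stem cuticle, had signals of 290, 238 and 331 on day 7, against 89.5, 100.4 and 95.5 on day 5. Its log2 difference was 1.43 ± 0.13 (adjusted p = 1.2e-10). Its means at days 0 and 3 were 12.8 and 18.4. AT1G02190, the other tested member of the epidermis and cuticle list, had 110.0, 121 and 114 on day 7, against 30.3, 32.5 and 34.1 on day 5, a log2 difference of 1.44 ± 0.10 (adjusted p = 3.6e-13). Among the 8041 tested loci with a name, 8.43% were called, 3.95% higher and 4.48% lower. Both tested members of the 22 fixed for the epidermis and cuticle list were higher, with a median log2 difference of 1.43 against 0.01 over all tested probe sets. The summed signal of these 2 genes ran from 358 to 445 on the day 7 arrays and from 120 to 133 on the day 5 arrays, and the part of more epidermis in the sample was not tested.

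REM22, a gene of the REPRODUCTIVE MERISTEM family of B3-domain factors, had 44.6, 33.0 and 44.3 on day 7, against 1.35, 8.61 and 8.97 on day 5. The day 5 values lay below the 40th percentile of each array, so the size of its log2 difference of 1.36 ± 0.15 depends on the offset (adjusted p = 8.9e-09). It was 2.61 at the offset of 1.62. AT4G11190 reached 240, 236 and 217 on day 7, against 73.4, 73.9 and 75.2 on day 5. Its day 0 mean was 107, so the day 7 level was the highest of the course after a low point on day 5.

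AT5G62210 took a similar turn. Its signals were 125, 126 and 133 on day 7, against 39.1, 31.1 and 38.9 on day 5, and its means at days 0 and 3 were 147 and 42.7. The remaining members of the 12 loci with the largest gains were AT5G22430 at 1.61, AT2G17280 at 1.37, AT4G23680 at 1.36, AT5G02230 at 1.31, AT1G04660 at 1.28 and AT4G00870 at 1.25, as log2 differences. AT5G02230 had 2.08 at the offset of 1.62.

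**Figure D1:**
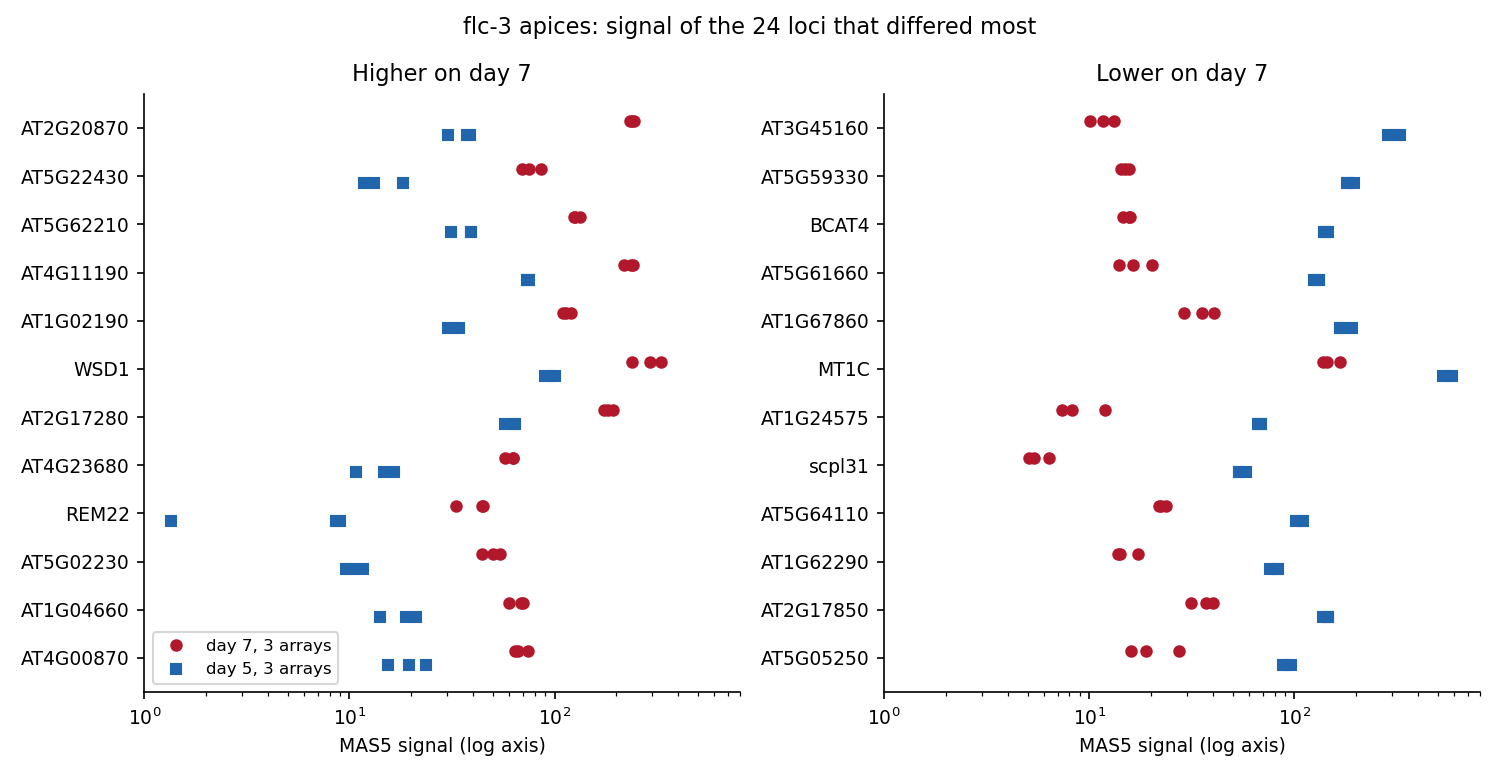
MAS5 signal on a log axis of the 12 loci with the largest gains and the 12 with the largest losses, with a circle for each of the 3 day 7 arrays and a square for each of the 3 day 5 arrays of flc-3. The loci were chosen among those whose days do not overlap, so the gap between the days is given by that choice. AT3G45160 lies between 10.1 and 13.1 on day 7, against 286 to 327 on day 5.

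The largest loss was that of AT3G45160. Its signals were 10.1, 13.1 and 11.6 on day 7, against 327, 286 and 312 on day 5. All day 7 values were below the 40th percentile of their arrays, so no fold is given. The log2 difference was -3.55 ± 0.09 (SE, 3 against 3 arrays; adjusted p = 1.1e-26 in limma). At days 0 and 3 the gene had averaged 343 and 358, so nearly all of its loss fell in this step.

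BCAT4, an aminotransferase that opens the chain elongation of methionine for aliphatic glucosinolates, had 15.6, 14.6 and 15.7 on day 7, against 142, 140 and 146 on day 5, a log2 difference of -2.34 ± 0.07 (adjusted p = 3.6e-23). Here the decline ran through the whole course, with means of 1107 at day 0, 423 at day 3, 142 at day 5 and 15.3 at day 7. AT5G59330 had 14.9, 14.3 and 15.7 on day 7, against 181, 183 and 195 on day 5, and also declined throughout from a day 0 mean of 600.

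MT1C, a metallothionein, had 144, 138 and 167 on day 7, against 531, 583 and 556 on day 5. It stayed bright on both days, and its day 5 mean was 3.72 times its day 7 mean. AT1G67860 and AT2G17850 turned round. AT1G67860 had means of 78.8, 134, 177 and 34.9 at days 0, 3, 5 and 7, and AT2G17850 had 87.4, 130, 143 and 36.0. The other losses among the 12 largest were AT5G61660 at -2.15, AT1G24575 at -1.73, the serine carboxypeptidase-like gene scpl31 at -1.72, AT5G64110 at -1.67, AT1G62290 at -1.63 and AT5G05250 at -1.57. AT1G24575 had -2.70 and scpl31 had -2.98 at the offset of 1.62. Of the 24 loci, 12 had a day on which all 3 arrays lay at or below their 40th percentile. Among probe sets the annotation table does not name, 246072_at at 2.79 and 251898_at at 2.78 gained most, and 245891_at at -3.36 and 261335_at at -2.89 lost most.

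Promoters of flowering moved in both directions. AGL24, a MADS-box promoter that is known to be repressed again in floral meristems, had 152, 168 and 177 on day 7, against 238, 236 and 235 on day 5 (log2 difference -0.48 ± 0.09, adjusted p = 0.00024). Its means were 145 at day 0, 202.9 at day 3, 236 at day 5 and 166 at day 7, so the last step undid most of the gain made earlier. AGL42, a MADS-box relative of SOC1, had 105, 118 and 86.4 on day 7, against 76.0, 78.4 and 75.5 on day 5 (0.35 ± 0.09, adjusted p = 0.0057). That call was lost without replicate 2 of day 7. FD, the bZIP partner of FT, had a log2 difference of 0.06 ± 0.11 (adjusted p = 0.84), and its days overlapped. Of the 16 genes fixed for this list 3 were tested, with a median of 0.06. Among them 1 was higher and 1 lower, beside 3.95% higher and 4.48% lower among all named loci.

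Among floral meristem genes UFO, an F-box partner of LEAFY, was higher at a low signal. It had 25.6, 24.1 and 24.3 on day 7, against 10.7, 17.0 and 8.78 on day 5 (0.54 ± 0.13, adjusted p = 0.004). The call was lost at the offset of 1.62. PTL, a trihelix factor of perianth growth, had 43.3, 37.6 and 40.5 on day 7, against 62.5, 61.5 and 66.0 on day 5 (-0.49 ± 0.09, adjusted p = 0.00019). PUCHI at -0.26 and JAG at 0.03 did not pass the test. With 4 of 26 fixed genes tested, 1 was higher and 1 lower, beside 3.95% and 4.48% of all named loci. The median was -0.12.

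Both tested members of the 18 fixed floral repressors fell, beside 4.48% lower among all named loci, and their median was -0.46. AGL18 had 25.5, 23.6 and 28.4 on day 7, against 42.4, 53.6 and 41.0 on day 5 (-0.56 ± 0.11, adjusted p = 0.00031). SMZ, an AP2-like repressor, had 4.67, 9.02 and 5.37 on day 7, against 13.7, 14.1 and 10.6 on day 5 (-0.37 ± 0.10, adjusted p = 0.014). All 6 SMZ values were dim, and the call was lost when any of 4 arrays was left out. None of the 2 tested clock and photoperiod genes of 31 was called, and GI had 63.6, 62.4 and 64.7 on day 7, against 59.3, 60.8 and 56.4 on day 5.

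**Figure D2:**
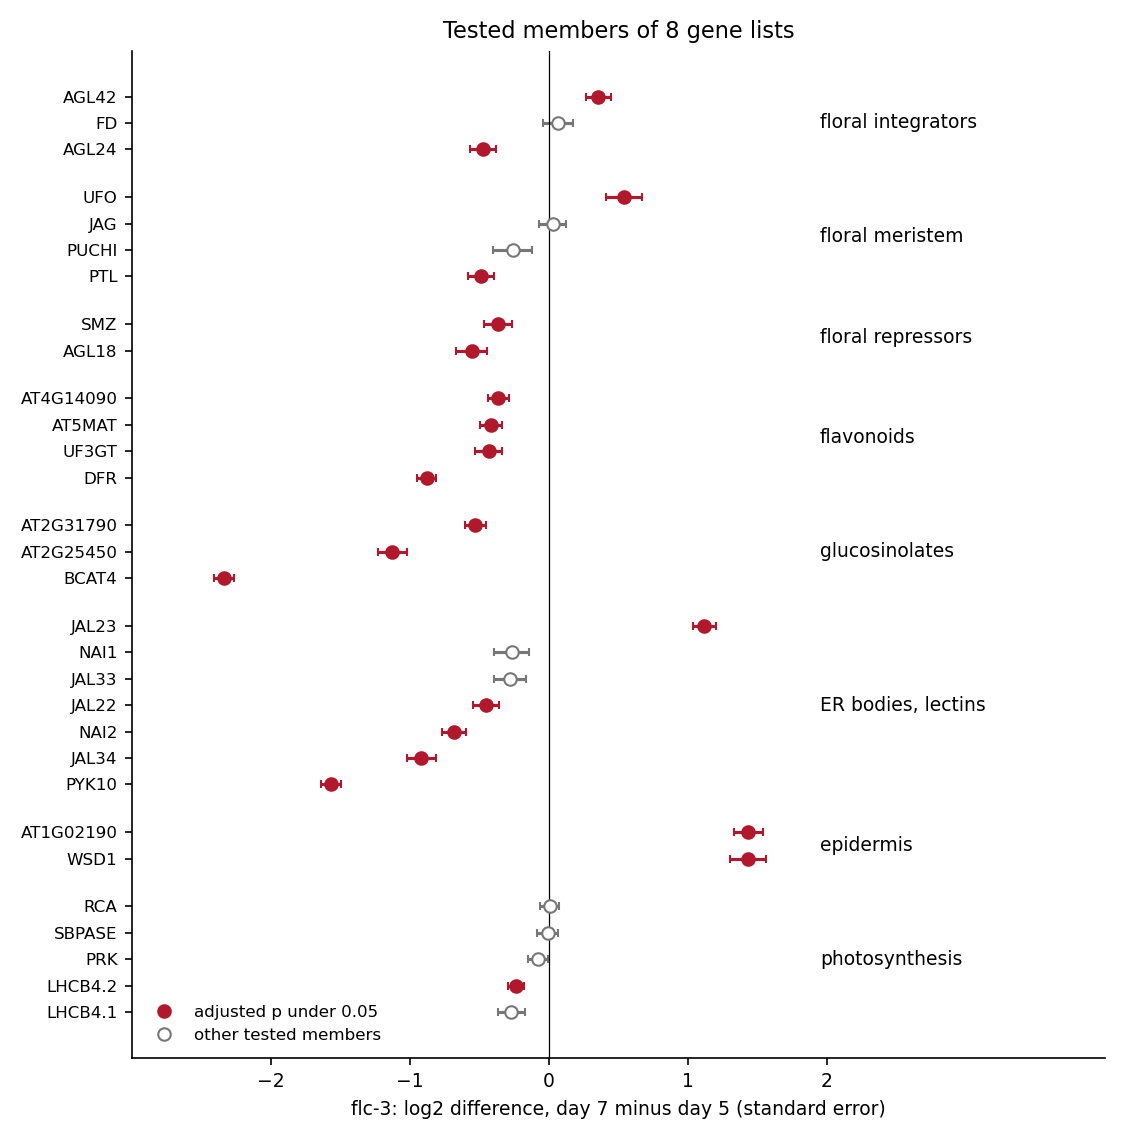
Log2 difference of day 7 minus day 5 in flc-3, with its standard error, for the tested members of 8 gene lists, where filled circles passed the test. All 4 flavonoid members and all 3 glucosinolate members lie below 0, JAL23 lies at 1.12 above the other lectins, and both epidermis members lie near 1.43.

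Anthocyanin synthesis fell in each tested gene. DFR, the dihydroflavonol reductase, had 124, 112 and 106 on day 7, against 226, 222 and 221 on day 5 (-0.88 ± 0.07, adjusted p = 1.4e-12). UF3GT, a glycosyltransferase of this pathway, had a log2 difference of -0.43 ± 0.10. The malonyltransferase AT5MAT had -0.42 ± 0.08 and AT4G14090 had -0.36 ± 0.07. All 4 tested members of 19 were lower, beside 4.48% of all named loci, and their median was -0.42. None of the 4 overlapped between the days, as was so for 29.1% of all tested probe sets. DFR had declined throughout, with means of 555, 402, 223 and 114 at days 0, 3, 5 and 7.

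All 3 tested members of the 23 fixed aliphatic glucosinolate genes fell, beside 4.48% lower among all named loci, and their median was -1.13. Next to BCAT4, AT2G25450 had 0.794, 1.27 and 7.53 on day 7, against 26.6, 24.9 and 24.9 on day 5. Its day 0 mean had been 616, and its log2 difference of -1.13 is the median of the list. On day 7 BCAT4 and AT2G25450 lay below the 40th percentile of each array, so the sizes of their differences depend on the offset. AT2G31790 had 131, 138 and 138 on day 7, against 215, 202.8 and 191 on day 5 (-0.53 ± 0.08). Of the 8 genes fixed for the indole glucosinolate list 1 was tested, the glucosyltransferase UGT74B1. It had 0.16 and did not pass (adjusted p = 0.34), and this 1 gene does not show whether the indole branch changed.

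Endoplasmic reticulum bodies store beta-glucosidases such as PYK10, which binds jacalin-related lectins when tissue is damaged. PYK10 had 33.1, 33.7 and 36.0 on day 7, against 130.0, 140.1 and 129 on day 5 (-1.57 ± 0.07, adjusted p = 2.3e-18). NAI2, a body component, had 176, 196 and 181 on day 7, against 324, 306 and 287 on day 5 (-0.68 ± 0.09). JAL34 had -0.92 ± 0.11 and JAL22 had -0.45 ± 0.09. The lectin JAL23 went the other way, with 450.4, 534 and 532 on day 7, against 220.4, 217 and 233 on day 5 (1.12 ± 0.08, adjusted p = 9.1e-13). JAL33 at -0.28 and NAI1, the bHLH regulator of the bodies, at -0.27 did not pass. Of 15 genes fixed 7 were tested, and the median was -0.45. Of the 7, 1 was higher and 4 lower, beside 3.95% higher and 4.48% lower among all named loci. Among beta-glucosidases found by symbol, a family that leaves PYK10 out, 2 of 10 tested were higher and 5 lower, led by BGLU46 at -0.72, BGLU45 at -0.70 and BGLU44 at -0.52.

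Families of enzymes that modify small molecules held several gains. Of 24 tested genes with a UGT symbol, which name UDP-glycosyltransferases, 6 were higher and none was lower in limma. Their median was 0.08, and 18 of them were not called. Among all named loci 3.95% were higher and 4.48% lower. UF3GT does not carry such a symbol and was not among them. UGT84A1, which glucosylates hydroxycinnamates, had 52.1, 73.2 and 70.8 on day 7, against 34.0, 25.4 and 20.0 on day 5 (0.94 ± 0.16, adjusted p = 2.3e-05). That call was lost at the offset of 1.62. UGT84A3 at 0.42, UGT71B1 at 0.29 and UGT88A1 at 0.25 were the next by adjusted p. With replicate 1 alone for day 7 all 4 lost their calls, and UGT71B1 also did without replicate 2 of day 7. Cytochromes P450 had 3 of 10 higher and 1 lower, with a median of 0.07. CYP71B22 had 162, 172 and 157 on day 7, against 73.0, 72.4 and 66.2 on day 5 (1.06 ± 0.11), with CYP71B26 at 0.78 and CYP71B37 at 0.75 beside it, and CYP78A9 had -0.77 ± 0.16. Glutathione transferases had 2 of 6 higher and 1 lower, with a median of 0.04. The called ones were GSTU27 at 0.72, GSTU16 at 0.44 and GSTU20 at -0.35. The 1 tested terpene synthase of the list, AT5G44630, had 252, 259 and 274 on day 7, against 103, 102 and 110.4 on day 5 (1.196 ± 0.14). THI2.1, a thionin induced by jasmonate and the 1 tested gene of that list, had 350.1, 359 and 341 on day 7, against 216, 195 and 203.9 on day 5 (0.73 ± 0.11).

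Of the 32 photosynthetic leaf genes fixed, 5 were tested and 1 fell, beside 4.48% lower among all named loci, with a median of -0.08. LHCB4.2, an antenna protein of photosystem II, had 880, 937 and 983 on day 7, against 1100, 1153 and 1053 on day 5 (-0.24 ± 0.06, adjusted p = 0.0031). LHCB4.1 had -0.27 at an adjusted p of 0.071, and PRK, SBPASE and RCA lay between -0.08 and 0.00. The summed signal of the 5 ran from 4132 to 4220 on day 7 and from 4402 to 4795 on day 5, and the part of a smaller share of leaf in the sample was not tested. Of 28 tested photosystem and light-harvesting genes 5 were lower and 1 was higher, beside 4.48% lower and 3.95% higher among all named loci. Their median was -0.27 against 0.01 over all tested probe sets. The lower ones included PSBW at -0.29, PSAE-1 at -0.34 and LHCB4.2. The calls of PSBW and PSAE-1 were lost without replicate 1 of day 7 and with other arrays left out. LHCB4.3 was the exception, with 133, 116 and 129 on day 7, against 79.7, 83.7 and 86.1 on day 5 (0.51 ± 0.10, adjusted p = 0.00028).

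None of 5 tested cell cycle genes, 4 shoot meristem and leaf polarity genes, 9 autophagy genes or 4 gibberellin genes was called in limma. Nor was any of 3 auxin synthesis genes, 2 anther genes or 15 ribosomal protein genes found by symbol. These ribosomal genes, among them rpl20, rpl33, rpl36 and rps18, had a median of -0.20 and do not stand for all ribosomal proteins. Among all named loci 8.43% were called, so no call in so small a set does not show that a process was unchanged. Only 5 of 46 fixed cell cycle genes, 4 of 34 meristem and polarity genes and 2 of 9 anther genes were tested. The summed signal of the 5 cell cycle genes ran from 1499 to 1692 on day 7 and from 1550 to 1643 on day 5, so the days overlapped. Of the cold and dehydration genes COR15A, with 8.72, 6.03 and 6.01 on day 7 against 19.5, 12.3 and 11.4 on day 5, was the 1 call among 4 tested, and it was lost under 6 of 17 alternatives, among them without replicate 2 of day 7. In the iron deficiency list AT1G47400 had -1.07 ± 0.11, and PYE had -0.11. EXPA4, at -0.62, was the 1 call among 6 expansins, and HTB1, a histone H2B, at 0.28 was the 1 call among 5 core histones. Both tested xyloglucan endotransglucosylase genes were called, XTH16 at 0.32 and XTH32 at -0.26. WRKY47, at -0.70, was the 1 call among 3 WRKY factors, and the sugar transporter SWEET1, at 0.35, was the 1 call among 5 transporters, lost without replicate 1 or 2 of day 7. None of 6 cellulose synthase genes or 3 Aux/IAA repressors was called. No gene of the vascular, salicylate, heat shock or low oxygen lists was tested.

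**Figure D3:**
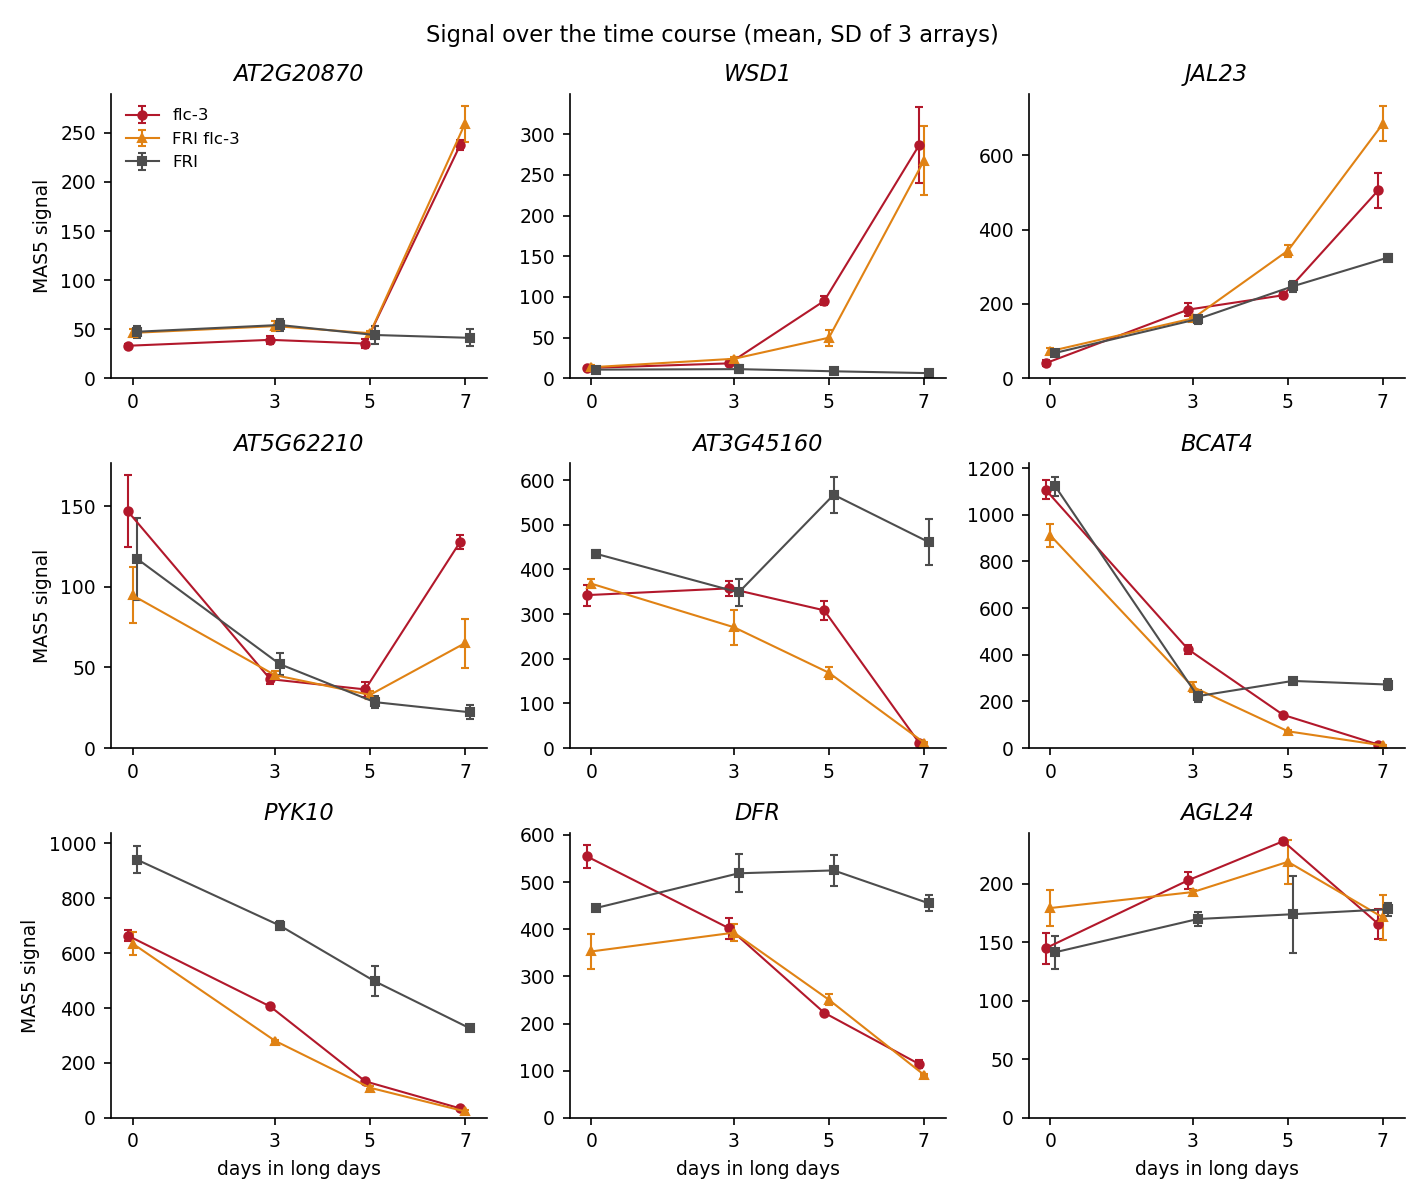
Mean MAS5 signal with the SD of 3 arrays at 0, 3, 5 and 7 long days for 9 genes in flc-3, FRI flc-3 and FRI, with marks set slightly apart. AT2G20870 stays flat until day 5 in flc-3 and reaches 238 on day 7, BCAT4 declines throughout from 1107 to 15.3, and in FRI their means on day 7 and day 5 are 41.3 and 44.2 for AT2G20870 and 272 and 288 for BCAT4.

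The last step was compared with the first 3 long days, which share no array with it. Day 3 minus day 0 in flc-3 had 3526 (23.6%) probe sets called, and day 5 minus day 3 had 2417 (16.2%), although only 126 and 41 of them reached a 2-fold difference, against 183 from day 5 to day 7. Of the 687 probe sets higher on day 7, 175 (25.5%) had been higher on day 3 as well, which is 9.30% of the 1881 called higher there. Another 108 (15.7%) had been lower on day 3, which is 6.57% of the 1645 called lower. Of the 790 lower on day 7, 152 (19.2%) had been lower on day 3, which is 9.24% of that list, and 26.3% of the 790 had been higher, which is 11.1% of that list. Over all tested probe sets 12.6% were called higher and 11.0% lower on day 3.

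The same step in FRI flc-3 had 2241 (15.0%) probe sets called, 7.51% of the tested ones higher and 7.52% lower, and its arrays are separate from those of flc-3. Of the 687 higher in flc-3, 458 (66.7%) were higher in FRI flc-3, which is 40.9% of the 1120 higher there, and 3 were lower. Of the 790 lower in flc-3, 515 (65.2%) were lower in FRI flc-3, which is 45.9% of the 1121 lower there, and 4 were higher. Pearson's r of the differences across the 14912 probe sets, which are not independent replicates, was 0.71.

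The size of the change differed between flc-3 and FRI flc-3 for 116 (0.778%) probe sets, 34 (0.228%) with a more positive and 82 (0.550%) with a more negative difference in flc-3. UF3GT had the largest positive value. Its means were 117 on day 7 and 164 on day 5 in flc-3, and 66.6 on day 7 and 197 on day 5 in FRI flc-3, so it fell in both lines and less in flc-3 (difference of changes 0.95 ± 0.14, adjusted p = 4e-05 in limma). AT3G45160 had 11.6 on day 7 and 309 on day 5 in flc-3, and 12.5 on day 7 and 169 on day 5 in FRI flc-3, so the day 7 means lay close together and the day 5 mean was higher in flc-3 (-0.86 ± 0.12). AT3G10020 had -0.17 in flc-3, which did not pass, and 0.66 in FRI flc-3, a difference of -0.83 ± 0.12. MSRB5, a methionine sulfoxide reductase, had 20.8 on day 7 and 13.4 on day 5 in flc-3. In FRI flc-3 it had 58.0 on day 7 and 16.0 on day 5 (difference of changes -0.88 ± 0.16). Within flc-3 its change of 0.33 did not pass, and its day 5 values were dim. The count was 74 without replicate 1 of FRI flc-3 day 5, 77 without replicate 1 of flc-3 day 5, and 310 with array weights. With replicate 1 alone for day 7 of flc-3 it was 43.

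FRI made few large changes at this step, with 397 (2.66%) probe sets called, 0.691% of the tested ones higher and 1.97% lower, and 3 at 2-fold or more. The count was 249 without replicate 1 of FRI day 5 and 190 when only the arrays of that comparison were fitted. The change differed between flc-3 and FRI for 754 (5.06%) probe sets, 388 (2.60%) more positive and 366 (2.45%) more negative in flc-3. AT2G20870 had 238 on day 7 and 35.5 on day 5 in flc-3, against 41.3 on day 7 and 44.2 on day 5 in FRI (difference of changes 2.38 ± 0.15, adjusted p = 3.4e-14). AT3G45160 had 461 on day 7 and 567 on day 5 in FRI, and BCAT4 had 272 on day 7 and 288 on day 5 there, so the differences of changes were -3.26 ± 0.12 and -2.26 ± 0.10. WSD1 had 6.45 on day 7 and 8.72 on day 5 in FRI. AGL24 had 178 on day 7 and 174 on day 5 in FRI, a difference of changes of -0.52 with an adjusted p of 0.009. For AGL42 the change was 0.35 in both lines. The probe sets at least 2-fold different in flc-3 were chosen on that contrast. The 61 higher ones had a median of 1.203 in flc-3, 1.19 in FRI flc-3 and -0.01 in FRI. The 122 lower ones had a median of -1.29 in flc-3, -1.06 in FRI flc-3 and -0.37 in FRI. Of the 790 lower in flc-3, 160 (20.3%) were lower in FRI, which is 54.4% of the 294 lower there. Among the 687 higher, 22 (3.20%) were higher in FRI and 27 were lower.

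**Figure D4:**
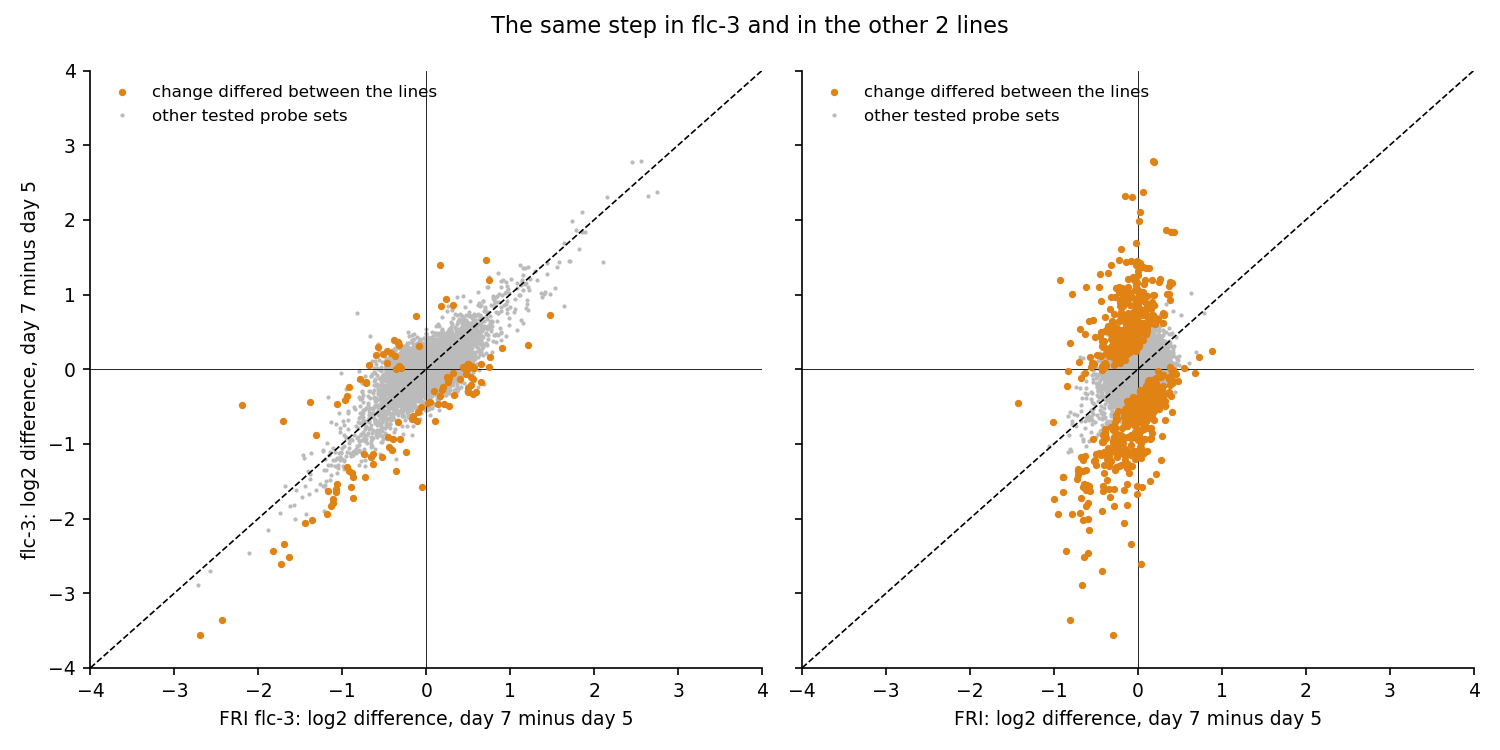
Log2 difference of day 7 minus day 5 in flc-3 (vertical) against that in FRI flc-3 (left) and in FRI (right) for 14912 probe sets, with the dashed line marking equal change. Orange points, 116 on the left and 754 on the right, are those whose change differed between the lines, and the right panel is narrow along its horizontal axis.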

How the data were processed

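ATH1 arrays with biotin-labelled total RNA, 1 per sample, were read from the deposited series table. Per the submitters' processing notes the authors used MAS5, and the deposited values are linear signal intensity, 1 per probe set and array. Its version and scaling target are not given in the sources used here. Trimmed means were equal across arrays, so no scaling was added, and the number of arrays limits the precision. Groups were taken from the labels. Of 22810 probe sets 64 controls were left out, and 14912 exceeded their array's 40th percentile on at least 3 of 36 arrays. Log2(signal + 16) was fitted with limma 3.58.1 in R 4.3.3, with 1 mean for each of 12 groups and an eBayes trend. Adjustment followed Benjamini and Hochberg over all tested probe sets, with calls under 0.05. The p-values reflect only how these samples spread, since the labels do not say whether replicates came from separate plants. The fit was also run on simulated data with normal noise of its own fitted spread. Such noise meets the assumptions of the fit, so that run does not test them.

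Names came from a platform annotation table, which gave 1 gene for 13513 probe sets, of which 13436 matched a locus, and several genes for 503. The probe set of highest mean signal stood for a locus, which left 8041 tested loci, 678 (8.43%) of them called. The text names the 12 called loci of largest size per direction whose days do not overlap, up to 4 members of smallest adjusted p per list or family, 5 loci per direction for each difference between lines, and 2 unnamed probe sets per direction. A few further members are named to complete a list. The arrays, lists and members were chosen with earlier results of these data known. Alternatives were offsets of 1.62 and 64, quantile and 75th-percentile scaling, other filters, a replicate block, array weights, no trend, only the arrays compared, and leaving arrays out. Day 7 by replicate 1 alone was added after seeing the data.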

Additional observations from a re-analysis of the deposited data

Results flagged for a closer look

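The change from day 5 to day 7 differed between flc-3 and another line, by a test of the difference itself in limma, for 116 probe sets against FRI flc-3 and for 754 against FRI. Values below are differences of log2 changes, flc-3 minus the other line, and each passed at an adjusted p under 0.05. Against FRI flc-3 the largest positive values were those of UF3GT at 0.95, AT1G11540 at 0.79, AT5G62210 at 0.75, AT2G12250 at 0.72 and AT1G31690 at 0.68. AT1G11540, AT2G12250 and AT1G31690 were dim and did not pass the test within flc-3, and the probe set of AT2G12250 is of a class that can also bind other transcripts. AT1G11540 lost its call under 17 of 22 alternatives, AT5G62210 under 14 of 23, AT2G12250 under 10 of 22 and AT1G31690 under 4 of 23. The largest negative values were those of AT1G49310 at -1.002, MSRB5 at -0.88, AT3G45160 at -0.86, scpl31 at -0.85 and AT3G10020 at -0.83. AT1G49310 had means of 2.93 on day 7 and 32.9 on day 5 in flc-3, against 5.09 on day 7 and 10.9 on day 5 in FRI flc-3. Those of scpl31 were 5.60 on day 7 and 55.1 on day 5 in flc-3, against 4.37 on day 7 and 21.2 on day 5 in FRI flc-3. Both genes were dim on day 7 in both lines, and their day 5 means were higher in flc-3. In FRI flc-3 their day 5 means also lay below the 40th percentiles of those arrays, 22.5 to 23.8. That limits the size of the change in FRI flc-3, and so of the difference between the lines. MSRB5 and AT3G10020 did not pass the test within flc-3. MSRB5 and scpl31 each lost the call under 2 of 23 alternatives, the offset of 1.62 and replicate 1 alone for day 7.

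Against FRI the largest positive values were those of AT2G20870 at 2.38, AT5G22430 at 1.82, AT4G21870 at 1.80, AT1G04660 at 1.73 and AT4G30450 at 1.72. AT4G21870 had 217 on day 7 and 99.4 on day 5 in flc-3, against 54.1 on day 7 and 105 on day 5 in FRI, so the lines moved in opposite directions. The largest negative values were those of AT3G45160 at -3.26, AT5G59330 at -2.28, BCAT4 at -2.26, AT5G64110 at -1.66 and AT5G61660 at -1.57.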

How the results depend on the processing

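Leaving out 1 array at a time gave 1200 to 1290 calls for flc-3 day 7 minus day 5, 74 to 138 for the difference from FRI flc-3 and 629 to 754 for the difference from FRI. It gave 2795 to 2971 calls for day 3 minus day 0, 1718 to 2059 for day 5 minus day 3, 1550 to 1916 for FRI flc-3 and 249 to 353 for FRI, where the lowest count came without replicate 1 of FRI day 5. Array weights gave 2263 calls against 1477 in the main comparison and 310 against 116 for the difference from FRI flc-3. With day 7 by replicate 1 alone, an alternative chosen after seeing the data that has fewer arrays, the counts were 779, 43 and, for the difference from FRI, 466. A fit to only the arrays compared gave 190 calls for FRI in place of 397. The replicate block gave 1496 calls in the main comparison. Deviations of same-numbered arrays of day 7 and day 5 from their group means correlated at -0.11, -0.06 and -0.13, so no shared deviation by number was seen. With so few arrays these values cannot show whether the numbers mark a common batch. None of the 153 named values changed sign with a call in the main fit or in the alternative. A change of sign in a value called in neither was not counted. Of 93 called, 70 kept the call under each alternative, and 23 lost it under at least 1. Of 60 not called, 9 gained a call under at least 1. At the offset of 1.62, 4 of the 24 leading loci had a log2 size over 1.5 times that at 16. Signal near the 40th percentile, 19.8 to 24.8, limits the sizes of dim probe sets.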

Other observations

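Some called genes outside the lists and families were chosen after their values were seen. ARR15, a type-A response regulator induced by cytokinin, had 102, 116 and 111 on day 7, against 206.8, 227 and 234 on day 5, a log2 difference of -0.92 ± 0.08 (SE; adjusted p = 1.2e-10 in limma). SHI, a zinc-finger factor of shoot growth, had 16.5, 21.1 and 21.9 on day 7, against 44.6, 41.2 and 46.9 on day 5 (-0.75 ± 0.10). GTR2, a glucosinolate transporter, had 75.7, 77.1 and 75.5 on day 7, against 147, 151 and 151 on day 5 (-0.85 ± 0.11). In all 3 genes the days did not overlap, as was so for 29.1% of all tested probe sets.

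TCP15, a TCP factor of organ growth, had 296, 267 and 251 on day 7, against 189, 179 and 216 on day 5 (0.45 ± 0.07). XERICO, a RING-finger gene linked to abscisic acid, had 165, 148 and 159 on day 7, against 90.0, 103 and 111 on day 5 (0.57 ± 0.09). SP1L2, a relative of the microtubule gene SPIRAL1, fell until day 5 and then recovered, with means of 46.7, 23.6, 15.2 and 51.1 at days 0, 3, 5 and 7.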
